A study of Mus musculus with 6 samples.

Results

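The unfolded protein and amino acid stress genes are 33 genes that cells use when proteins fail to fold in the endoplasmic reticulum (ER) or when amino acids run short. They were taken by gene symbol for their known roles, from a list drawn up with earlier results of these data known. All 33 were among the 18194 genes measured on the arrays, each through its probe set with the highest mean log2 intensity over the 6 arrays. By known role they fall into 14 ER chaperones and oxidoreductases, 4 stress sensors and transcription factors, 6 genes of ER-associated degradation and 9 genes of the Atf4 arm.

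The ER folds secreted and membrane proteins with the help of chaperones such as BiP, the product of Hspa5. When unfolded proteins build up, the sensors Ern1 (IRE1), Eif2ak3 (PERK) and Atf6 are released from restraint. IRE1 splices Xbp1 mRNA, cleaved ATF6 moves to the nucleus, and PERK phosphorylates the translation factor eIF2 alpha, which slows most translation but favours that of Atf4. The kinase GCN2 feeds into the same Atf4 arm when amino acids are scarce, so Atf4 targets include both stress genes and enzymes that make amino acids. Granulocyte progenitors make large amounts of granule protein in the ER.

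RNA was measured on 6 Affymetrix arrays from sorted mouse bone marrow cells, 3 arrays from WT and 3 from N1-IC. In both groups cKit+ cells infected with MLL-AF9-IRES-YFP, which carries a fusion oncogene of acute myeloid leukaemia and a fluorescent marker, were transplanted into wild-type recipients of 12 weeks after lethal irradiation. Each recipient received 50000 such cells with 250000 wild-type support marrow cells. The WT donors were EF1α wt/wt and ROSA wt/CreERT2. The N1-IC donors were EF1α wt/lsl-N1-IC and ROSA wt/CreERT2, so that the intracellular domain of Notch1 was to be switched on by Cre. Both groups carried the tamoxifen-activated Cre and both received tamoxifen, 2 injections of 0.2 mg per g from 4 weeks after transplantation, with analysis 6 days after the last one. The sorted cells, called LGMP, were lineage negative, cKit+, Sca1-, YFP+, CD34+ and FcgRII/III+. By the labels the WT samples were male and the N1-IC samples female, so genotype and sex cannot be told apart. None of the 33 genes lies on chromosome X or Y. The labels do not say how many mice stood behind a sample, so the p-values measure only the spread between these samples. The median probe set intensity of an array was 49.6 to 51.0.

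The labelled cell type was checked against marker genes. The granule genes Mpo, Elane, Prtn3 and Ctsg had list means of 13.81 to 13.98 log2 units on all 6 arrays, and Kit lay between 10.24 and 10.76. Of the 4 measured genes of the sort gate all had lower means in N1-IC. Cd34, a gate marker, was at 11.69, 11.52 and 11.33 in WT and 11.04, 10.05 and 11.28 in N1-IC, with all N1-IC values below WT (log2 fold change -0.72 ± 0.32, adjusted p = 0.618 in limma). Markers of other cells differed between single arrays and in part between the groups, and none passed in limma. Of 10 late granulocyte markers 9 were measured, and their summed intensity in WT ran from 8028 to 63897, against 51960 to 70166 in N1-IC, with the low value in WT replicate 1. All 9 had higher means in N1-IC, and Mmp9, a granule protease gene, was higher on every N1-IC array (log2 fold change 2.71 ± 0.84). Of 7 measured monocyte and macrophage markers 4 had higher and 3 lower means in N1-IC, with summed intensities from 5895 to 9991 in WT and from 5777 to 7136 in N1-IC. The macrophage genes Mrc1 and C1qa were higher on every N1-IC array, with log2 fold changes of 1.36 ± 0.46 and 0.45 ± 0.19, and C1qa lay under the array medians. The part of these markers in the results below was not tested. Of 12 erythroid and megakaryocyte markers 10 were measured, with WT sums from 960 to 10339 and N1-IC sums from 835 to 1147. The high value was that of WT replicate 2. Means were higher in N1-IC for 3 and lower for 7. Klf1 was lower and Gp9 higher on every N1-IC array (-1.72 ± 1.04 and 0.66 ± 0.24). Pf4 had -1.48 ± 0.47 with overlapping groups. Plasma cells are known for a strong unfolded protein response. The 11 measured plasma cell and B lineage markers had WT sums from 3533 to 5425 and N1-IC sums from 3922 to 4820. Means were higher in N1-IC for 7 of them and lower for 4. Irf4 was lower on every N1-IC array (log2 fold change -1.11 ± 0.34), at 4.58 to 5.27 there, under the array medians. Sdc1 was at 8.03, 10.02 and 7.44 in WT and 7.05, 7.14 and 7.45 in N1-IC (-1.29 ± 0.64). Of 9 measured mast cell, basophil and eosinophil markers 7 had higher and 2 lower means in N1-IC. Gata2 had -1.35 ± 0.57, and Fcer1a ran from 2.5 to 8.2 over the WT arrays. Of 9 measured T and NK lineage markers 3 had higher and 6 lower means. Klrk1 was lower on every N1-IC array (-1.32 ± 0.34), at levels under the array medians there. The part of all these cells in the results below was not tested. In RNA of sorted cells, fewer cells of a type and less RNA per cell cannot be told apart.

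Sequences that the ER stress factors are known to read are given first, because they show which of these genes share a promoter element. The search was run after the array fit. RefSeq promoter windows of build GRCm38.p6, 250 bases before to 50 after the start, were at hand for 29 of the 33 genes and 27025 genes in all. Shares are of genes, and a gene counts if any of its windows holds the letters. The ER stress response element was searched as CCAAT followed by 9 bases of any kind and CCACG, on either strand. It was present in 9 of these 29 genes and in 37 of all 27025 (0.137%). The genes were chosen for their known roles in these pathways, so the higher share among them is no separate result. The element was in 7 of 12 chaperone and oxidoreductase promoters, in 2 of 5 of ER-associated degradation, and in 0 of 9 of the Atf4 arm. Below, capitals mark its CCAAT and CCACG parts, or their reverse complements ATTGG and CGTGG, on the strand of the gene. Hspa5 stands as the textbook target, Hsp90b1, Pdia6, Creld2 and Derl3 as genes whose groups did not overlap on the arrays, and Dnajc3 as a chaperone with a higher mean in N1-IC.
Hspa5: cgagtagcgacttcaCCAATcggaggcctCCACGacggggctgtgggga
Hsp90b1: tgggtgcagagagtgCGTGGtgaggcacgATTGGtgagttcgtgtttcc
Pdia6: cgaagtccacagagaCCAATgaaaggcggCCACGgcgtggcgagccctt
Creld2: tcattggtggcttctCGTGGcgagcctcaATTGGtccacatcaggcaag
Derl3: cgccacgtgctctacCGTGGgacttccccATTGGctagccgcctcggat
Dnajc3: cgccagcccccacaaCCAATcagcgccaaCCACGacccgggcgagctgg

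These windows lie at chr2:34772010-34772058 on the plus strand for Hspa5, chr10:86705518-86705566 on the minus strand for Hsp90b1 and chr12:17266476-17266524 on the plus strand for Pdia6. Those of Creld2, Derl3 and Dnajc3 lie on the plus strand at chr15:88819505-88819553, chr10:75893227-75893275 and chr14:118937812-118937860. All 6 are upstream of the annotated start, with the element between base -65 and -47 in Hspa5 and between -156 and -138 in Derl3. Hsp90b1 holds another copy farther upstream. The remaining windows with the element were those of Calr, Canx and Syvn1.

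The C/EBP-ATF composite element that ATF4 is known to bind was searched as TGATGNAAN on both strands. It was in 3 of 9 promoters of the Atf4 arm (Trib3, Asns and Chac1), in that of Herpud1, in 0 of 12 chaperone promoters and in 4.50% of all genes. Capitals mark its fixed letters on the gene's strand. The windows lie at chr6:7693210-7693247 on the minus strand for Asns, chr2:119351033-119351071 on the plus strand for Chac1 and chr8:94386301-94386339 on the plus strand for Herpud1.
Asns: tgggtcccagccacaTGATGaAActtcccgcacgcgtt
Chac1: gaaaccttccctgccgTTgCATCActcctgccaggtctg
Herpud1: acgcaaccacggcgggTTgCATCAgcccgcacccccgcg

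The short UPR element TGACGTGG was in 0 of the 29 genes and in 0.714% of all genes. CCACG alone, which lies within the longer element, was in 24 of 29 and in 35.5% of all genes. These matches describe letters in the windows, and binding was not measured. Because the genes were chosen for known roles, shares above those of all genes are no separate result for these elements either.

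N1-IC was compared with WT to ask whether the genotype that carries inducible Notch1 differed in stress gene expression after tamoxifen. None of the 33 genes passed an adjusted p under 0.05 in limma over all genes, where 0.0055% of genes did, and their smallest adjusted p was 0.618. Before adjustment 2 genes had a p under 0.05, Pdia6 and Derl3, both lower in N1-IC, beside 3.84% of all genes lower and 4.14% higher at that level. Means were lower in N1-IC for 22 of the 33 genes and higher for 11, where 47.4% of all genes and 55.3% of genes at or above the median level were lower. Leaving out WT replicate 1 left 17 lower means, and the other settings 19 to 24. The median log2 fold change of the 33 was -0.067, against 0.012 over all genes. By arm the median was -0.040 for chaperones and oxidoreductases, -0.13 for sensors and Xbp1, -0.17 for ER-associated degradation and -0.067 for the Atf4 arm.

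**Figure D1:**
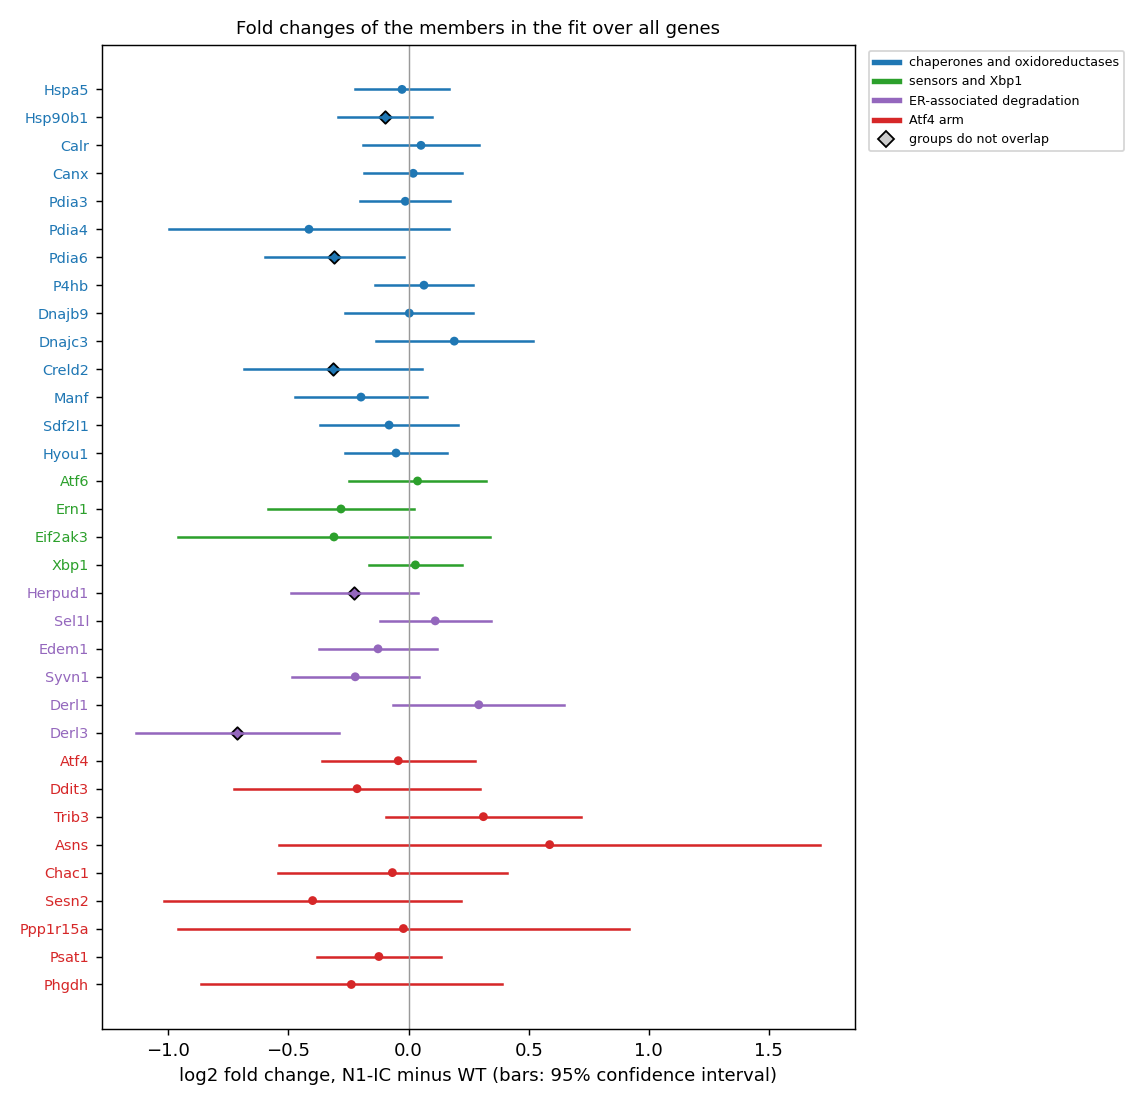
Log2 fold change of N1-IC over WT for the 33 genes, with 95% confidence intervals from limma, coloured by arm. Diamonds mark the 5 genes whose 3 N1-IC values all lie below the 3 WT values, and the interval of Asns, up to 1.71, is the widest.

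The intervals show how large a difference the brightest probe set of each gene leaves room for, given the spread between arrays. They do not cover differences between probe sets of a gene, and some further probe sets lay outside them. The interval of Atf4 ran from -0.36 to 0.28, while a further probe set had 0.52. That of Ddit3 ran from -0.73 to 0.30, while its second probe set had -0.75. For 30 of the 33 genes the 95% interval of the log2 fold change lay within -1 and 1, as it did for 87.4% of all genes. The exceptions were Derl3, Asns and Sesn2. Within -0.5 and 0.5 lay the intervals of 18 genes (53.3% of all genes), of which 10 were among the 14 chaperones and oxidoreductases and 2 among the 9 genes of the Atf4 arm.

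On the arrays, 5 of the 33 genes (15.2%) had all 3 N1-IC values below all 3 WT values. The share was 6.52% over all genes and 8.79% over genes at or above the median level. The 5 were Hsp90b1, Pdia6, Creld2, Herpud1 and Derl3. No gene of the 33 had all N1-IC values above WT, beside 8.32% of all genes and 6.90% of those at or above the median level. Among the 31 stress genes at or above that level, 4 were lower without overlap and 0 higher. Groups of 3 against 2 arrays overlap less often by construction, and the counts then moved. Without WT replicate 3 there were 9 lower and 7 higher, beside 15.3% and 18.8% of all genes. Without WT replicate 2 there were 8 lower and 1 higher, beside 10.4% and 12.4% of all genes. Without N1-IC replicate 3 there were 10 lower and 3 higher, beside 13.1% and 14.4%. When the values of a gene's probe sets were averaged there were 6 lower and 5 higher, beside 6.90% and 7.80% of all genes.

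**Figure D2:**
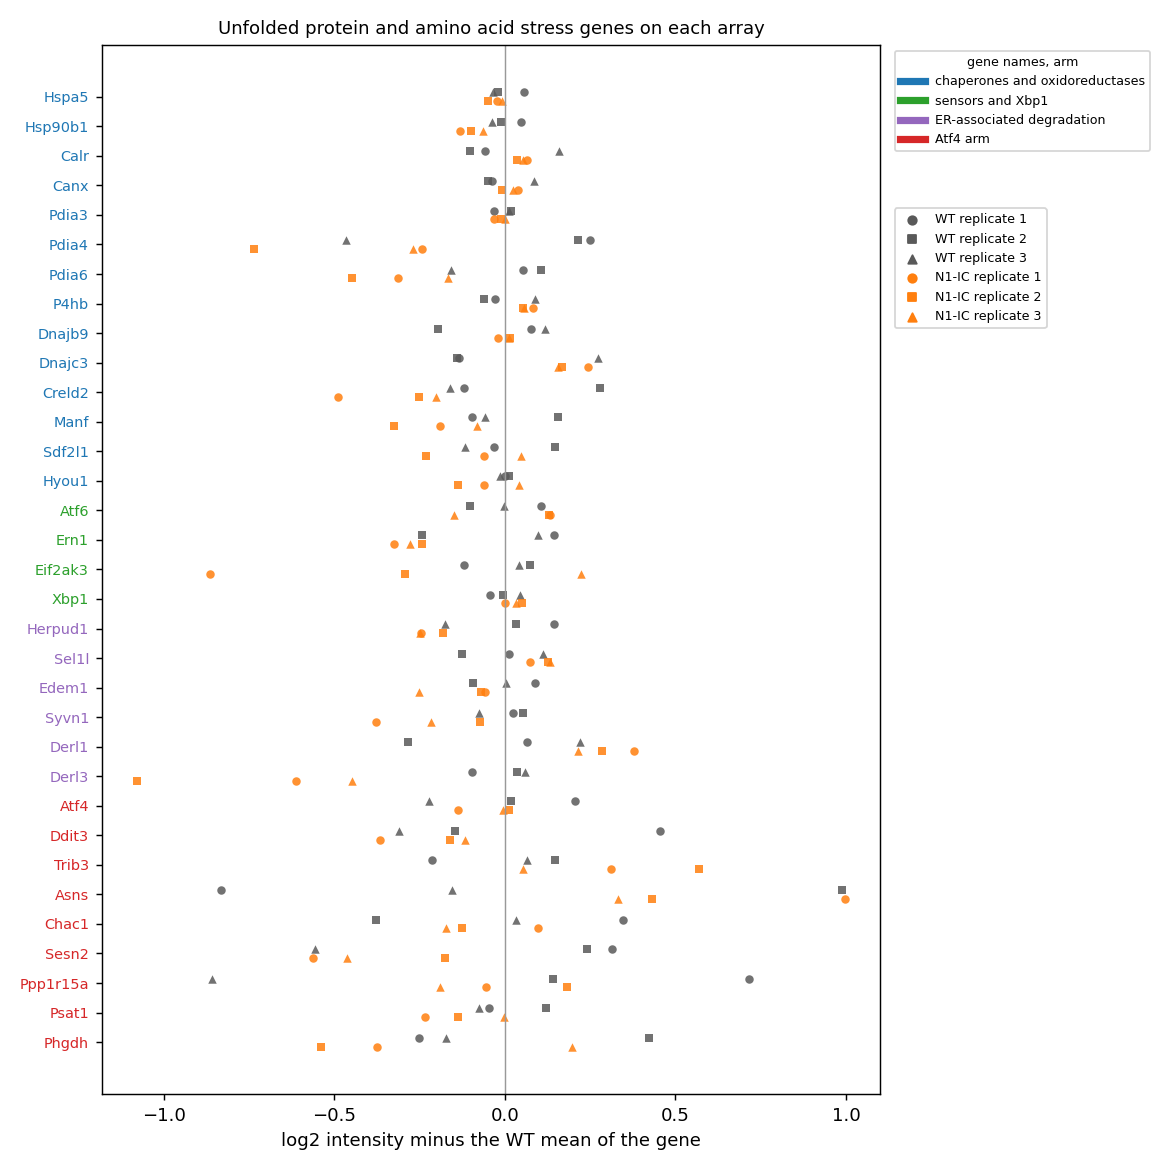
Log2 intensity of each of the 33 genes on each array, as the difference from the gene's WT mean. Grey symbols are the 3 WT arrays, orange symbols the 3 N1-IC arrays, and shapes give the replicate. Most chaperones stay within a narrow band while Asns and Ppp1r15a spread by 1.82 and 1.57 log2 units among the WT arrays.

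Fold changes of the central ER chaperones were small. Hspa5, which encodes BiP, the main Hsp70 chaperone of the ER and the restraint on the sensors, had log2 values of 12.80, 12.73 and 12.71 in WT and 12.72, 12.70 and 12.74 in N1-IC. The groups overlapped. The log2 fold change was -0.027 with a standard error of 0.080, written below as ±, and its 95% interval ran from -0.22 to 0.17. The lectin chaperones that hold glycoproteins had log2 fold changes of 0.052 ± 0.10 for calreticulin (Calr) and 0.020 ± 0.084 for calnexin (Canx). A further probe set of Calr had 0.28 with overlapping groups, and 1 of Canx had 0.24 with all N1-IC values above WT. The disulfide isomerases Pdia3 and P4hb had -0.014 ± 0.077 and 0.064 ± 0.085. Of the co-chaperones of BiP, Dnajb9 had 0.0031 ± 0.11 and Hyou1, its nucleotide exchange factor, -0.052 ± 0.087. A dimmer probe set of Hyou1 had all N1-IC values below WT and -0.45, and the average of its probe sets gave -0.21.

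Hsp90b1, which encodes the ER member of the Hsp90 family, had log2 values of 12.37, 12.32 and 12.29 in WT and 12.20, 12.23 and 12.26 in N1-IC. All 3 N1-IC arrays were below the lowest WT array, by a small margin. N1-IC differed from WT by -0.097 ± 0.080 log2 units (adjusted p = 0.702 in limma). Its other probe set had the opposite sign, 0.099, with overlapping groups.

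Pdia6, an isomerase that also acts on IRE1, had log2 values of 11.34, 11.39 and 11.13 in WT and 10.97, 10.84 and 11.12 in N1-IC. WT replicate 3 and N1-IC replicate 3 lay next to each other at the border between the groups. Between groups the log2 fold change was -0.31 ± 0.12 (unadjusted p = 0.0395, adjusted p = 0.618 in limma). Its other probe set had -0.30 with overlapping groups.

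Creld2, which encodes a secreted ER stress protein, had log2 values of 10.54, 10.94 and 10.50 in WT and 10.17, 10.41 and 10.46 in N1-IC. The highest value was that of WT replicate 2, and the groups did not overlap. Limma gave a log2 fold change of -0.31 ± 0.15 (adjusted p = 0.624). It was -0.18 without WT replicate 2, the array with the highest erythroid marker sum, whose part in the result was not tested.

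Pdia4, another isomerase, had log2 values of 10.99, 10.96 and 10.28 in WT and 10.50, 10.01 and 10.48 in N1-IC. WT replicates 1 and 2 were the highest of the 6 arrays, and WT replicate 3 lay within the N1-IC range. Its log2 fold change was -0.41 ± 0.24 (adjusted p = 0.645 in limma). It was -0.65 without WT replicate 3 and -0.25 without N1-IC replicate 2. Manf, an ER stress-induced secreted factor, had a log2 fold change of -0.20 ± 0.11, Sdf2l1, which works with BiP, -0.081 ± 0.12, and Dnajc3, the BiP co-chaperone p58IPK, 0.19 ± 0.14. Dnajc3 was at 11.61 and 11.60 in WT replicates 1 and 2, and at 11.90 to 12.01 on the other 4 arrays, WT replicate 3 included.

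Sensors and Xbp1 showed no common direction, with 2 higher and 2 lower means. Ern1, which encodes IRE1, had log2 values of 11.48, 11.09 and 11.43 in WT and 11.01, 11.10 and 11.06 in N1-IC. WT replicate 2 was level with the N1-IC arrays. N1-IC differed from WT by -0.28 ± 0.13 log2 units (adjusted p = 0.618 in limma). A dimmer probe set had 6.49, 6.50 and 6.85 in WT and 6.06, 6.13 and 5.58 in N1-IC, all below WT, and a log2 fold change of -0.69. The 3 others had -0.36, -0.45 and 0.23 with overlapping groups.

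Eif2ak3, which encodes PERK, had log2 values of 9.38, 9.57 and 9.54 in WT and 8.63, 9.20 and 9.72 in N1-IC. N1-IC replicate 1 was the lowest and N1-IC replicate 3 the highest of all 6. The log2 fold change of -0.31 ± 0.27 became -0.0345 without N1-IC replicate 1. With N1-IC replicate 3 left out it was -0.58. A dimmer probe set of Eif2ak3 was higher on every N1-IC array, with a log2 fold change of 0.098. Its dimmest probe set had -0.27 with overlapping groups. Atf6 had a log2 fold change of 0.038 ± 0.12. Xbp1 lay between 11.25 and 11.34 on all 6 arrays, with a log2 fold change of 0.029 ± 0.080 and a 95% interval from -0.16 to 0.22. Splicing of Xbp1 was not analysed here.

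ER-associated degradation moves misfolded proteins back to the cytosol, where the proteasome destroys them. Herpud1, a membrane scaffold of the degradation complex, had log2 values of 10.85, 10.74 and 10.531 in WT and 10.461, 10.526 and 10.459 in N1-IC. All N1-IC arrays were below WT, although WT replicate 3 and N1-IC replicate 2 lay close together. Limma gave a log2 fold change of -0.23 ± 0.11 (adjusted p = 0.624), and the other probe set had -0.069 with overlapping groups.

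Derl3, a derlin of the membrane channel complex, had log2 values of 5.19, 5.32 and 5.35 in WT and 4.68, 4.21 and 4.84 in N1-IC. It had the largest fold change of the 33 in absolute size, -0.71 ± 0.17, with an unadjusted p of 0.00598 and an adjusted p of 0.618 in limma. These values lie below the array medians of 5.63 to 5.67 log2 units. Detection calls were not used, so whether Derl3 exceeded background is unknown.

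Its relative Derl1 went the other way, at 11.69, 11.34 and 11.84 in WT and 12.00, 11.91 and 11.84 in N1-IC. WT replicate 2 was the low array, and the groups touched at WT replicate 3. Its log2 fold change was 0.29 ± 0.15, and the 3 other probe sets of Derl1 had -0.10, -0.12 and 0.071. It was 0.15 without WT replicate 2 and 0.036 with probe sets averaged. For Syvn1, the ubiquitin ligase HRD1, the log2 fold change was -0.22 ± 0.11, and for its partner Sel1l 0.11 ± 0.095. Edem1, which helps select glycoproteins for degradation, had -0.13 ± 0.10.

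In the Atf4 arm the arrays of WT lay far apart, and the median absolute log2 fold change was 0.21. Its median range over the 3 WT arrays was 0.724 log2 units, against 0.373 in N1-IC and against 0.255 for chaperones and oxidoreductases in WT. Over all genes the median range was 0.322 in WT and 0.262 in N1-IC. For 5 of its 9 genes WT replicate 1 was the highest array, beside 21.3% of all genes. On WT replicate 1 the late granulocyte marker sum was the lowest, and its part in these values was not tested.

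Atf4 itself, the transcription factor, had log2 values of 12.68, 12.49 and 12.25 in WT and 12.33, 12.48 and 12.46 in N1-IC. The N1-IC values all lay inside the WT range. N1-IC differed from WT by -0.043 ± 0.13 log2 units.

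Asns, which makes asparagine and is a standard Atf4 target, had log2 values of 8.63, 10.45 and 9.31 in WT and 10.46, 9.90 and 9.80 in N1-IC. WT replicate 1 was the lowest array, while WT replicate 2 was level with the highest N1-IC array. Its log2 fold change was 0.59 ± 0.46 (adjusted p = 0.691 in limma), 0.17 without WT replicate 1 and 1.08 without WT replicate 2. Leaving out N1-IC replicate 1 gave 0.38. The other probe set gave 8.12, 10.10 and 8.83 in WT and 10.07, 9.51 and 9.44 in N1-IC. The order of arrays was the same, except that WT replicate 2 lay just above N1-IC replicate 1. The identifier of this other probe set carries the manufacturer's mark for probes that may match other transcripts.

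Ppp1r15a, the GADD34 subunit that removes phosphate from eIF2 alpha, had log2 values of 10.43, 9.86 and 8.85 in WT and 9.66, 9.90 and 9.52 in N1-IC. The highest and the lowest value were both WT. The log2 fold change of -0.021 ± 0.39 was -0.45 without WT replicate 3 and 0.34 without WT replicate 1.

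Ddit3, the pro-apoptotic factor CHOP, had log2 values of 10.53, 9.92 and 9.76 in WT and 9.70, 9.91 and 9.95 in N1-IC. WT replicate 1 stood above the other 5 arrays. Limma gave a log2 fold change of -0.21 ± 0.21. Sesn2, a stress-induced brake on mTORC1, was at 8.29 and 8.21 in WT replicates 1 and 2, at 7.41 in WT replicate 3 and at 7.41, 7.80 and 7.51 in N1-IC. Its log2 fold change was -0.40 ± 0.25 (adjusted p = 0.661 in limma). It was -0.68 without WT replicate 3 (adjusted p = 0.305), -0.24 without WT replicate 1 and -0.18 with probe sets averaged.

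The glutathione-degrading enzyme gene Chac1 had a log2 fold change of -0.067 ± 0.20. Trib3, a pseudokinase that feeds back on ATF4, had 0.31 ± 0.17 at levels from 4.65 to 5.43, under the array medians. The serine synthesis genes Phgdh and Psat1 had -0.24 ± 0.26 and -0.12 ± 0.11. Phgdh was highest in WT replicate 2 at 11.81 and in N1-IC replicate 3 at 11.58, against 10.85 to 11.21 on the other 4 arrays. Without WT replicate 2 the log2 fold changes were -0.027 for Phgdh and -0.062 for Psat1, and with N1-IC replicate 3 left out Phgdh had -0.46.

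**Figure D3:**
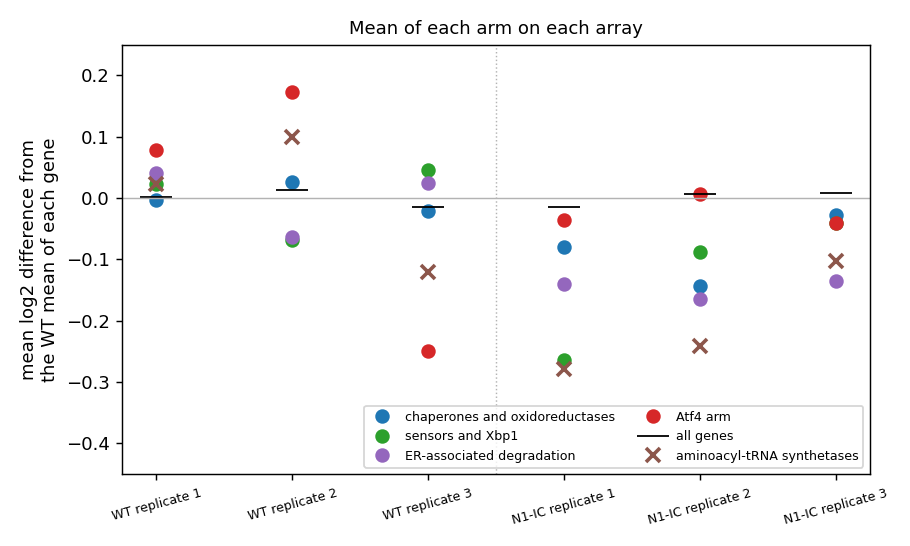
Mean log2 difference from each gene's WT mean, by arm and array, with all genes as black bars and the aminoacyl-tRNA synthetase genes as crosses. The Atf4 arm is lowest on WT replicate 3, at -0.25, and the chaperone arm lies between -0.14 and 0.026 on all arrays.

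Across arrays, WT replicate 3 was the WT array most often inside the N1-IC range, over all genes as well as over the 33. It was inside for 16 of the 33 genes (48.5%), beside 53.2% of all genes. WT replicate 1 was inside for 7 (21.2%, beside 37.8%) and WT replicate 2 for 10 (30.3%, beside 36.4%). Averaged over the 33 genes, the difference from WT was -0.10, -0.10 and -0.053 log2 units on N1-IC replicates 1, 2 and 3, and 0.029, 0.038 and -0.068 on the WT arrays. WT replicate 3 thus lay between N1-IC replicates.

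Several probe sets were present for 25 of the 33 genes, 80 in all, and for 13 of the 25 they disagreed in sign. Of the 47 probe sets that were not the brightest, 8 had N1-IC values all above WT and 5 all below, beside 7.39% and 7.02% of all probe sets on the arrays. None of the 80 passed when all probe sets were tested together (smallest adjusted p = 0.639 in limma). For Atf4 both further probe sets were higher on every N1-IC array. The dimmer lay at 5.45 to 6.00, near the array medians, with a log2 fold change of 0.25. Its groups nearly touched, at 5.905 in WT replicate 3 and 5.913 in N1-IC replicate 1. The brighter further probe set had 10.70, 10.18 and 10.89 in WT and 11.23, 11.11 and 10.99 in N1-IC. Its log2 fold change was 0.52 where that of the brightest was -0.043. Its identifier carries the manufacturer's mark for probes that may match other transcripts. The brightest probe sets of Calr, Phgdh and Trib3, and a dim one of Hspa5, carry the same mark. So do the second probe set of Asns and further ones of Calr, Phgdh and Eif2ak3.

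For Ddit3 the second probe set had 8.5341, 8.9995 and 8.5955 in WT and 7.69, 7.85 and 8.34 in N1-IC. The groups did not overlap and differed by -0.75 log2 units. For Sel1l 3 of 4 further probe sets were higher on every N1-IC array, with log2 fold changes of 0.13, 0.24 and 0.31. For Hspa5 a dim probe set at 6.45 to 7.33 had 0.54, while the other bright one had -0.096. For Dnajc3 a probe set at 10.63 to 11.19 had all N1-IC values below WT and a log2 fold change of -0.32, where the brightest had 0.19. Which part of each transcript these probe sets cover was not analysed here.

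**Figure D4:**
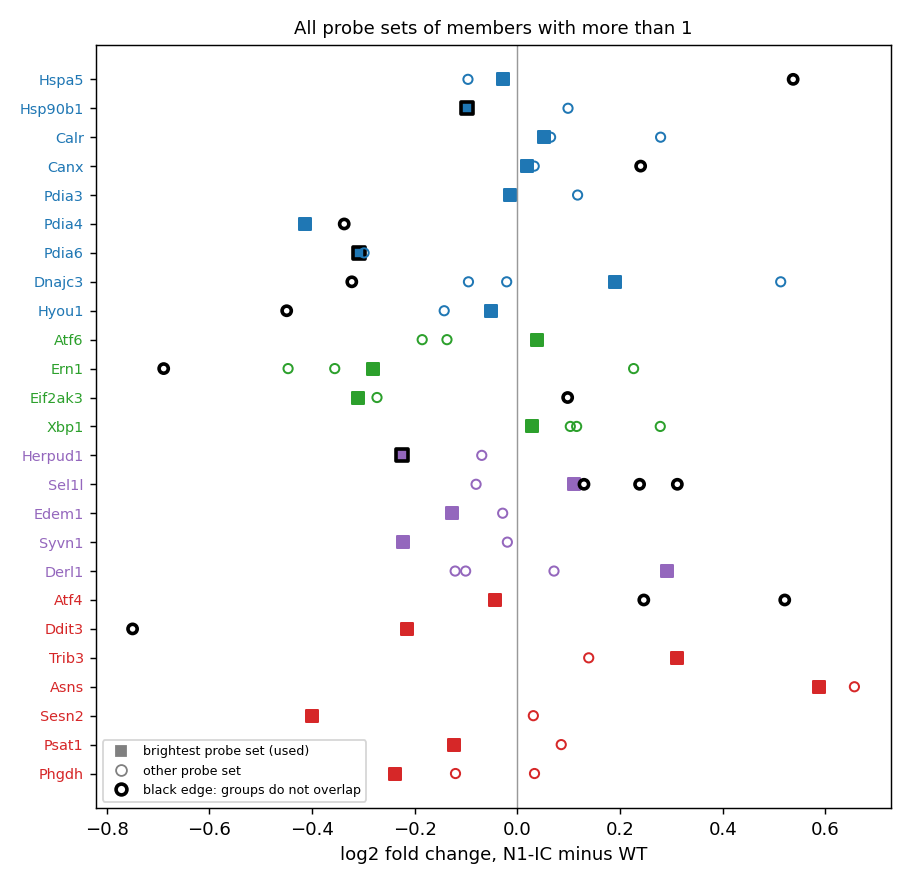
Log2 fold change of N1-IC over WT for every probe set of the 25 genes that have more than 1. Filled squares are the brightest probe sets and black edges mark groups that do not overlap. For Hspa5, Dnajc3 and Atf4 the probe sets lie on both sides of 0.

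Promoter element and array values were set side by side. Of the 9 genes with the ER stress response element, 4 (Hsp90b1, Pdia6, Creld2 and Derl3) were among the 5 genes with all N1-IC values below WT, and of the 20 genes without it, 1 (Herpud1), where the share among all genes was 6.52%. Hsp90b1 is at 0.0006 when its probe sets are averaged, and Derl3 lies under the array medians. Further probe sets of Hspa5 and Canx, which also carry the element, were higher on every N1-IC array (0.54 and 0.24). A further probe set of Dnajc3 was lower on every N1-IC array (-0.32). The median log2 fold change was -0.097 with the element, from -0.71 to 0.19, and -0.074 without it. Hspa5, Calr, Canx, Dnajc3 and Syvn1 carry the same element and had overlapping groups. In the Atf4 arm, the genes with the C/EBP-ATF element had log2 fold changes of 0.59 (Asns), 0.31 (Trib3) and -0.067 (Chac1).

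Other genes of these pathways were read from lists of their own. The counts of lower means in these lists stand beside 47.4% of all genes and 55.3% of genes at or above the median level. Of 26 further ER folding and export genes 18 had a lower mean in N1-IC and 8 a higher one, and 0 passed in limma. The 4 with the smallest p were the glycoprotein folding sensor Uggt1 (log2 fold change -0.38 ± 0.12), the oxidase Ero1b (-0.41 ± 0.14), the cargo receptor Lman1 (-0.32 ± 0.12) and the retrieval receptor Kdelr3 (0.83 ± 0.36). Of 11 further stress regulators 8 were lower and 3 higher, and 0 passed. Wfs1, an ER membrane protein, was at 6.97, 5.75 and 6.32 in WT and 4.99, 4.52 and 5.24 in N1-IC. Its log2 fold change was -1.43 ± 0.34, with all N1-IC values under the array medians. The Atf6-like factor Creb3l2 had -0.60 ± 0.15, without overlap between groups, Atf6b had -0.25 ± 0.12, and the protease gene Mbtps1, which cuts ATF6, had -0.24 ± 0.13. All 4 had adjusted p values of 0.618 or above.

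Further genes of ER-associated degradation divided evenly, 8 lower and 8 higher of 16, with 0 passing. Edem2, which trims mannose from glycoproteins, was at 10.15, 9.91 and 9.79 in WT and 9.45, 9.37 and 9.49 in N1-IC, with all N1-IC arrays below WT and a log2 fold change of -0.51 ± 0.12 (adjusted p = 0.618 in limma). Ufd1, Vcp and Rnf5 had 0.19, -0.15 and -0.12. Of 12 genes of eIF2 alpha kinases and translation control 9 were lower and 3 higher, and 0 passed. Impact, an inhibitor of GCN2, had -0.49 ± 0.17, the haem-regulated kinase gene Eif2ak1 -0.22 ± 0.091, Eif2b4 -0.29 ± 0.13 and the GCN2 activator gene Gcn1 -0.28 ± 0.14.

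Among 24 further Atf4 targets and partners 14 were higher and 10 lower, and 0 passed. Stc2, a secreted glycoprotein gene, had -0.46 ± 0.11, the mTORC1 inhibitor gene Ddit4 -0.35 ± 0.13, the transaminase gene Gpt2 -0.48 ± 0.20, and the cystine transporter gene Slc7a11 0.56 ± 0.17 at levels from 2.81 to 3.84, under the array medians. Of 9 further serine and one-carbon genes 6 were lower and 3 higher, and 0 passed. Aldh1l2, Mthfd2, Mthfd1 and Shmt2 had -0.22, -0.27, -0.20 and 0.14, with Aldh1l2 at levels from 2.84 to 3.37, under the array medians. Of 17 cytosolic and mitochondrial heat shock genes 13 were lower and 4 higher, and 0 passed, where 55.3% of genes at or above the median level were lower. Dnaja1 and Hspa4 had -0.27 ± 0.085 and -0.27 ± 0.10, and Trap1 and Hspd1 -0.34 ± 0.18 and -0.24 ± 0.13.

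Aminoacyl-tRNA synthetases, which charge tRNAs with amino acids and whose genes are known Atf4 targets in part, had lower means in N1-IC for 19 of 19 measured genes, where 47.4% of all genes and 55.3% of genes at or above the median level had lower means. None passed (smallest adjusted p = 0.618 in limma). The median log2 fold change of the list was -0.22. The mean level of the list was 10.71, 10.78 and 10.56 in WT and 10.40, 10.44 and 10.58 in N1-IC, so that N1-IC replicate 3 lay above WT replicate 3.

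For 7 of the 19 synthetase genes (36.8%) all N1-IC values were below WT, and for none all above. The share below was 6.52% over all genes and 8.79% over genes at or above the median level. The phenylalanine synthetase subunit genes Farsa and Farsb had log2 fold changes of -0.47 ± 0.15 and -0.31 ± 0.097, and the cysteine and tryptophan synthetase genes Cars and Wars had -0.33 ± 0.11 and -0.33 ± 0.12. Farsa was at 11.06, 10.95 and 10.57 in WT and 10.40, 10.30 and 10.47 in N1-IC. None of the 19 genes lies on chromosome X or Y. Leaving out WT replicate 2 left 16 genes with a lower mean and a median of -0.11, leaving out N1-IC replicate 2 left 17, and leaving out any other array left 19. The count without overlap was 11 without WT replicate 3 and 12 without N1-IC replicate 3, and 4 with probe sets averaged.

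**Figure D5:**
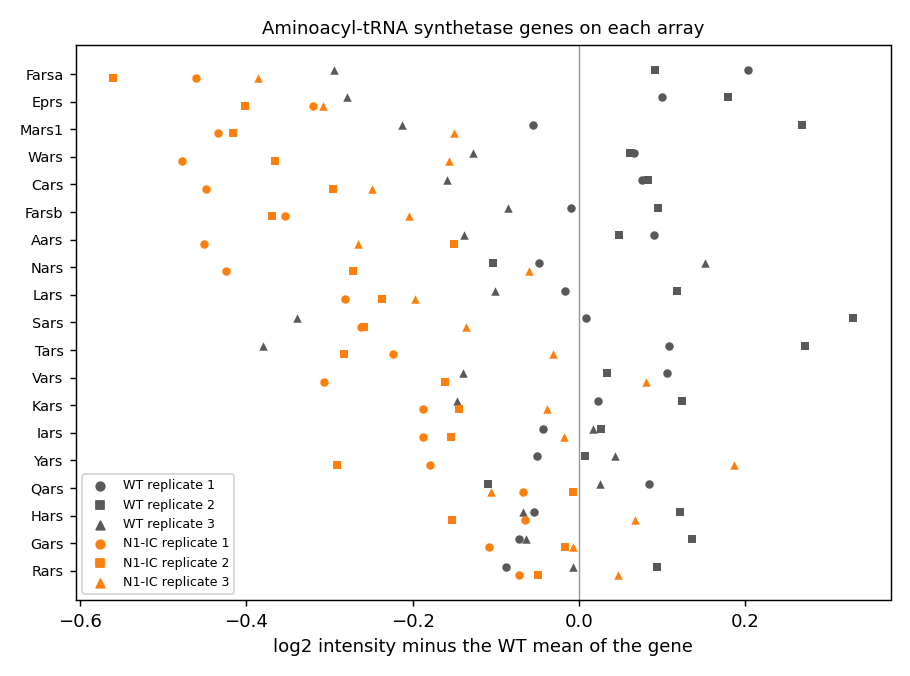
Log2 intensity of the 19 aminoacyl-tRNA synthetase genes on each array, as the difference from the gene's WT mean, ordered by fold change. N1-IC arrays (orange) lie mostly left of 0, and WT replicate 3 (grey triangles) is the lowest WT array for most genes.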

How the data were processed

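The authors deposited 1 table of intensities on a linear scale for 45101 probe sets and 6 arrays. RMA is named in the submitters' processing notes, without a version. It makes array distributions alike, so a difference is relative to the rest of the array. Values were converted to log2 with no offset. The platform annotation gave 34958 probe sets a single symbol, 932 several and 9211 none. A gene was read from its probe set with the highest mean. Limma 3.58.1 in R 4.3.3 (lmFit and eBayes, no block) was fitted across all genes, with Benjamini-Hochberg adjustment over 18194 genes and a threshold of 0.05, and errors are moderated standard errors. The fit was tested on simulated data. Depth does not apply to arrays, and the 3 arrays per group limit precision.

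The genes, arms and lists were chosen with earlier results of these data known. Values on every array are given for genes whose groups did not overlap, with an unadjusted p under 0.05 or with a range over 1 log2 unit in a group, with more genes added after their values were seen, and up to 4 genes of smallest p per pathway list. A few listed genes without a single-symbol probe set were not analysed here. Alternatives are given in the closing section. Deviations of same-numbered WT and N1-IC arrays from their group means correlated at 0.0093, 0.061 and -0.11, so replicate numbers were not taken as pairs.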

Additional observations from a re-analysis of the deposited data

How the results depend on the processing

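None of the 33 stress genes (31 where a median level was required) passed an adjusted p under 0.05 in limma under any of the 16 alternatives or at a threshold of 0.1. The count over all genes was 1, and it was 3 with a mean-variance trend, 2 with array weights, 2 among genes of median level or above, 5 with probe sets averaged, 4 over all probe sets, 0 with the replicate block, 4 at a threshold of 0.1 and 0 to 5 with 1 array left out. Without WT replicate 2 it was 5 and without WT replicate 3 it was 0. Stress genes with all N1-IC values above WT numbered 1 after renewed quantile normalization, 5 with probe sets averaged and 0 to 7 with 1 array left out, and those below WT 5 to 10. The median log2 fold change of ER-associated degradation was -0.13 among genes of median level or above, -0.099 with probe sets averaged and -0.20 to -0.12 with 1 array left out. With 1 array left out the median of all 33 was -0.13 to -0.030 and that of sensors and Xbp1 -0.15 to -0.022. Synthetase genes with all N1-IC values below WT numbered 4 with probe sets averaged and 7 to 12 with 1 array left out, a count added after seeing the data.

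Of the 33 genes 23 kept their sign in every setting, 15 lower and 8 higher. With probe sets averaged Hspa5 had a log2 fold change of 0.14, Hsp90b1 0.0006, Pdia3 0.052, Atf6 -0.095 and Atf4 0.24. Renewed quantile normalization gave Canx -0.013, Dnajb9 -0.0070, Chac1 0.0040 and Ppp1r15a 0.0034, centring on array medians gave Pdia3 0.0006 and array weights gave Dnajb9 -0.0072. With 1 array left out the ranges that crossed 0 were -0.045 to 0.0008 for Hspa5, -0.0044 to 0.063 for Canx, -0.094 to 0.062 for Dnajb9, -0.014 to 0.13 for Atf6, -0.15 to 0.060 for Atf4, -0.37 to 0.014 for Ddit3, -0.26 to 0.11 for Chac1 and -0.45 to 0.34 for Ppp1r15a. The causes were not tested. Values under the array medians may be background, which limits Derl3 and Trib3 among the 33. It also limits genes of the other lists such as Wfs1, Slc7a11 and Aldh1l2.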
